A study of Homo sapiens with 15 samples.

Results

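The expression of 51 interferon response genes was followed by RNA sequencing in U2OS, an osteosarcoma cell line with functional p53. The genes were taken by symbol from a table of 23368 genes: 2 sensors of viral RNA, 4 STAT and IRF transcription factors, 19 antiviral effectors, 5 genes of the ISG15 conjugation system, 7 PARP and TRIM proteins, 8 other interferon-stimulated genes and 6 genes of antigen presentation. All 51 symbols were in the table. The list was drawn up by function, but with earlier results of these data known. Of the 51, 38 were expressed highly enough to be tested and 13 were at or near the lowest value of the table.

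Type I interferons bind a receptor of IFNAR1 and IFNAR2 and, through the kinases JAK1 and TYK2, activate STAT proteins, among them STAT2, which joins IRF9 in a complex that binds the interferon-stimulated response element (ISRE). Genes with this element include RNA sensors, antiviral effectors and the STAT and IRF factors themselves, so that the system feeds back on itself. Resting cells keep a low level of many of these transcripts. RNA or DNA sensed in the cytoplasm can induce interferon or some of these genes directly.

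Cells were harvested in 3 states, each with Nutlin or with its solvent DMSO. Nutlin blocks the binding of p53 by MDM2, the protein that otherwise marks p53 for degradation. Asynchronous cells, cycling without a block, gave 3 libraries with DMSO and 3 with Nutlin. Non-released cells were held in a double thymidine block, 2 mM thymidine for 16 h on either side of 8 h without it, and gave 2 libraries per treatment. S-phase cells went through the same block, were released from it and harvested 4 h later, giving 3 libraries with DMSO and 2 with Nutlin. In blocked and released cells Nutlin, at 10 in a unit whose prefix is lost in the labels, was added 4 h before release or continued block and kept on after release. For asynchronous cells the labels state no length of treatment. All groups are of 1 cell line. The labels do not say that replicates are separate cultures, so the p-values below measure the spread between these samples alone, and that spread may be technical.

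Values are the authors' variance-stabilised values, in log2 units at high expression, in which a gene with 0 reads stands at 4.86. Libraries held 6.05 to 23.38 M reads in genes, so that a gene with 0 reads lies under 0.128 to 0.496 CPM, a limit of 3 reads that covers counting error only. The library labelled DMSO asynchronous replicate 3 stood apart. CDKN1A, the p53 target that encodes p21, was at 14.10 there, above all 3 Nutlin asynchronous libraries (13.51 to 13.59), and 9 of 10 epithelial markers were highest there. Their summed level was 15748 normalised reads in that library and 248 to 544 in the other 14. Of the blood cell markers CD3E, which marks T cells, was at the lowest value in all libraries, and that list summed to 71 normalised reads in this library and 86.6 to 156 elsewhere. Bone and mesenchymal markers, the markers of the labelled cell type, summed to 43509 in it and 48254 to 57440 elsewhere, with TWIST1 at the lowest value in all 15. SP7, BGLAP and COL1A2 were at or near it. VIM and SPARC, which make up most of the sum, were lowest of all libraries in this one (14.77 and 13.52), as were ALPL and PRRX1 (7.23 and 6.28). RUNX2 and COL1A1 went the other way, at 8.10 and 11.87, above the other asynchronous libraries. DMSO S-phase replicate 2, at 6.05 M reads, was the shallowest. Counts over the tested genes of the set are therefore given with all 15 libraries and with the 13 that remain without these. Counts by role and of genes outside the set are with 15 libraries only. The part of the epithelial transcripts in the results was not tested.

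Promoters of the genes are shown first, because the ISRE is the feature by which this set is known. RefSeq (GRCh38.p14) gave promoter windows for 43 of the 51 genes, 1 or more for each gene, from 250 bases before to 50 bases after an annotated start. The core, GAAA with any 2 bases before another GAAA (TTTC, any 2 bases and TTTC on the other strand), was found in 29 of these 43 (67.4%) and in 4.38% of 27305 genes with a window. The gamma-activated site core TTCNNNGAA, which reads the same on both strands, was found in 12 of 43 (27.9%) and in 9.38% of all genes. The windows of 5 genes whose levels the results turn on follow in the direction of transcription, with the ISRE cores in capitals.
SAMD9: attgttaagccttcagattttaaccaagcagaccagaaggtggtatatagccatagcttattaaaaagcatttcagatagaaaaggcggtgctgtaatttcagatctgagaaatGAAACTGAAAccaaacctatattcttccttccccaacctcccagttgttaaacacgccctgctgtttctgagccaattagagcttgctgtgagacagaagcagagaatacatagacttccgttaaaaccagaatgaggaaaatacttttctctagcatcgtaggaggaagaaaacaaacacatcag
IFI44: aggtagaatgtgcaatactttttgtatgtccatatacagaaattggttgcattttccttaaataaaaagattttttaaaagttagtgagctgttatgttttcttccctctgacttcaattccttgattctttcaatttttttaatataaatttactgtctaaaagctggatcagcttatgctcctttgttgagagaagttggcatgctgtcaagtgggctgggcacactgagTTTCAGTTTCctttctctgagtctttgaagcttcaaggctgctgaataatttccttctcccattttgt
PARP14: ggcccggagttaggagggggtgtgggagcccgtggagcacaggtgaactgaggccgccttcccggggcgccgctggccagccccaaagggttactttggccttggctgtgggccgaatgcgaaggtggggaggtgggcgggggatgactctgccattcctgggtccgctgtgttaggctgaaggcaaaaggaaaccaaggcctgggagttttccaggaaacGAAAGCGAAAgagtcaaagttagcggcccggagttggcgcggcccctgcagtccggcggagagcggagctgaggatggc
DTX3L: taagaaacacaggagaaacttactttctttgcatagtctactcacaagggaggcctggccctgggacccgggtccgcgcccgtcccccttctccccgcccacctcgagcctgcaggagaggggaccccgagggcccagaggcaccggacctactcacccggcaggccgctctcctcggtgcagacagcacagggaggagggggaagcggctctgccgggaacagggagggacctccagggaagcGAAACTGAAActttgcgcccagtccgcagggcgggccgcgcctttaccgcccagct
IFIT1: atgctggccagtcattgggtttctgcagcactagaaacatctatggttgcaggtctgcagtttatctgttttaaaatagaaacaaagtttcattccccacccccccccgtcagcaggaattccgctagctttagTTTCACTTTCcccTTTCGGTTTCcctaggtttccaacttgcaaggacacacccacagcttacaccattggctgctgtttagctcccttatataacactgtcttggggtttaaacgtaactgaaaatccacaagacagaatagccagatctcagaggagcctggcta

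SAMD9 has its window at chr7:93117930-93118229 (minus strand) and IFI44 at chr1:78649539-78649838. The window of PARP14 is chr3:122680589-122680888, that of DTX3L chr3:122564088-122564387 and that of IFIT1 chr10:89392373-89392672, these 3 and IFI44 on the plus strand. IFIT1 holds 2 cores and the others 1 each. With the start base counted as 0, the core begins at -136 in SAMD9, -29 in PARP14, -18 in IFI44 and -6 in DTX3L. The core in DTX3L, at bases 122564332 to 122564341 of chromosome 3, is also the core in the window of its neighbour PARP9, which runs the opposite way, where it begins at -41. Since the strand used in counting is not known, reads from any overlap of this pair cannot be told apart. A match describes letters in a window and is not a measured binding site.

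**Figure D1:**
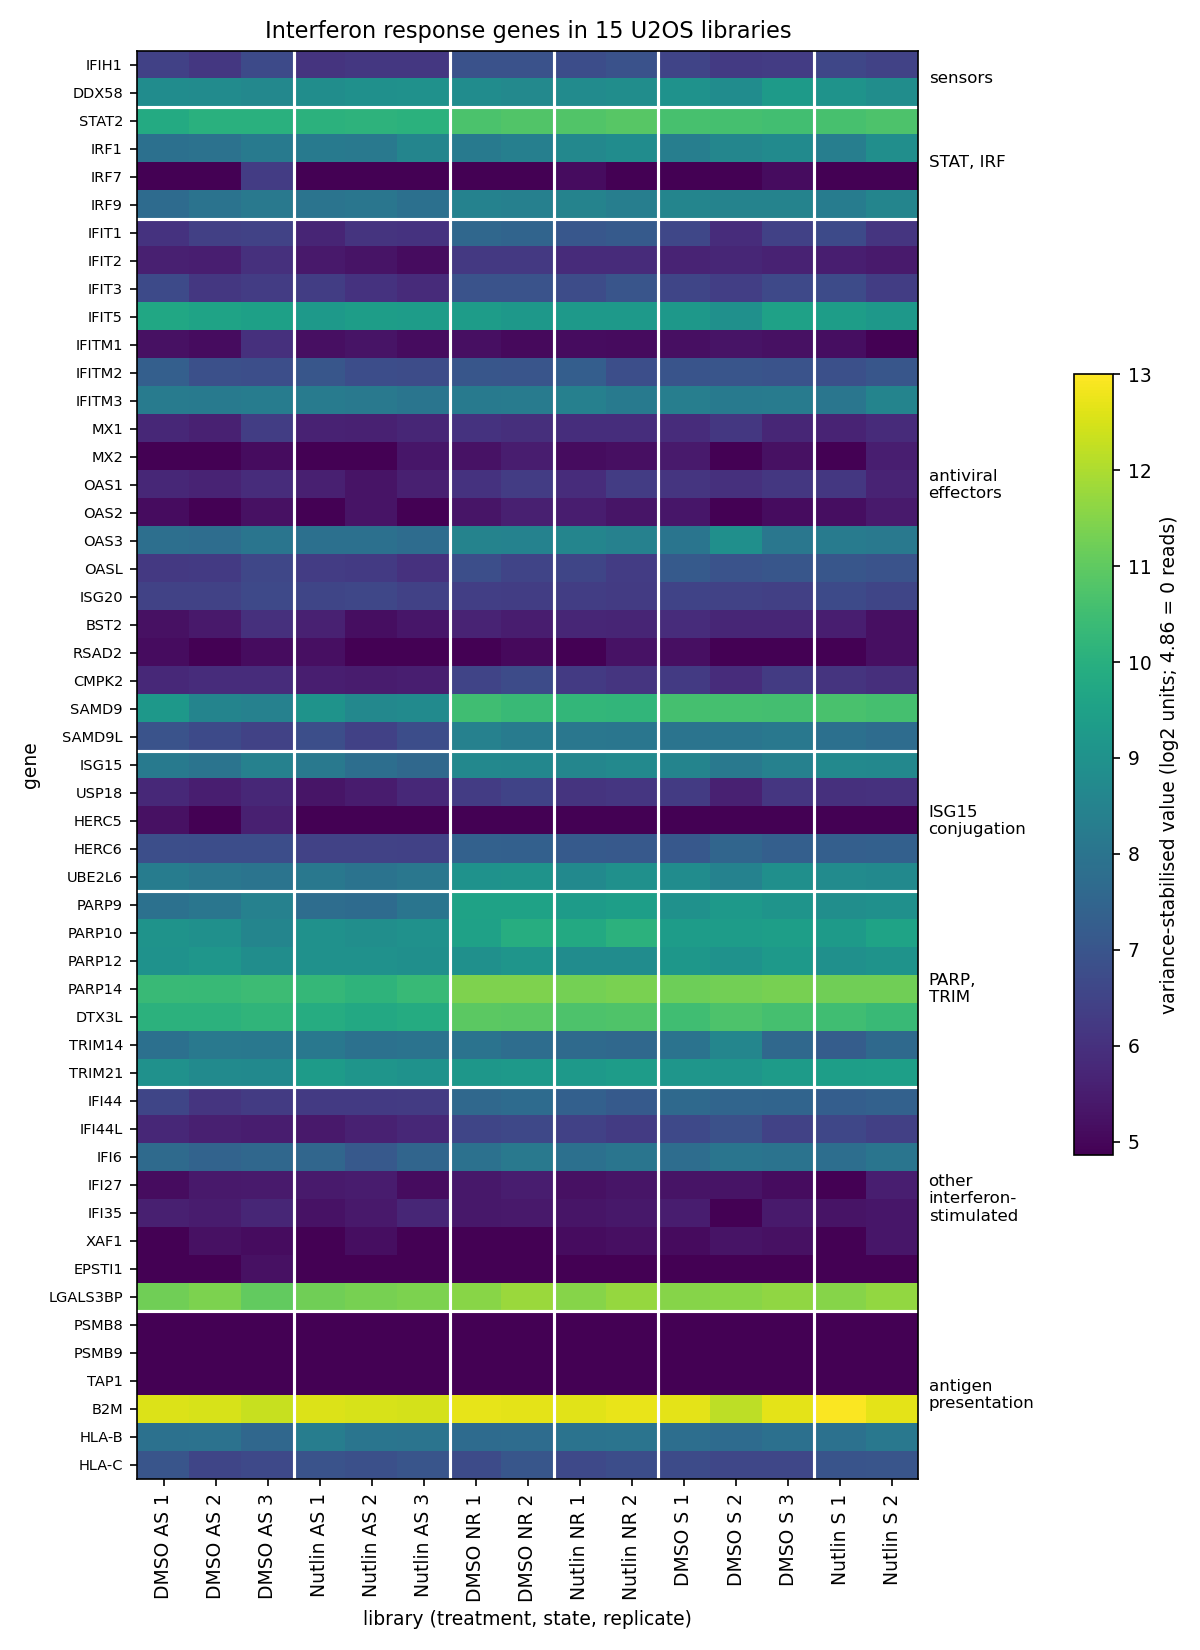
Variance-stabilised value of each of the 51 genes (rows, by role) in each of the 15 libraries (columns; AS asynchronous, NR non-released, S S-phase), where the darkest colour, 4.86, is 0 reads. PARP14, DTX3L, STAT2 and SAMD9 are brighter in all NR and S columns than in the AS columns, B2M is bright throughout, and PSMB8, PSMB9 and TAP1 are dark in all 15.

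Levels differed widely among the genes. On the RPKM scale, which divides reads by transcript length and library depth, B2M, the light chain of MHC class I, was the most abundant, with a median level over the 15 libraries of 231. LGALS3BP, a secreted glycoprotein, followed at 76 RPKM, STAT2 at 28.7, ISG15 at 23.6, IFITM3 at 19.8 and PARP14 at 18.1. SAMD9 stood at 11.1, the RNA sensor DDX58 at 5.74, IFI44 at 3.74, IFIT1 at 0.531 and MX1, a dynamin-like antiviral GTPase, at 0.253 RPKM. IFITM2 and IFITM3 are close paralogs, as are HLA-B and HLA-C, and their values are uncertain where reads match several copies.

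The 13 genes not tested included well known interferon-stimulated genes. PSMB8 and PSMB9, subunits of the immunoproteasome, and TAP1, a subunit of the peptide transporter, were listed at 0 reads in all 15 libraries. These 3 lie in the MHC region, where 87 of 139 protein-coding genes from HLA-F to DAXX were at the lowest value in all libraries (62.6%), against 9.78% of 17007 protein-coding symbols in the table. Genes that all cells use, such as DDX39B, BAG6, VARS and CLIC1, were also listed at 0 reads there. So PSMB8, PSMB9 and TAP1 are only listed at 0, and HLA-B and HLA-C, from the same region, are read with the same caution. The other 10 untested genes had reads. RSAD2, MX2, OAS2, HERC5, IFI27, IFI35, XAF1 and EPSTI1 stayed within 1 unit of the lowest value in every library, with at most 11 reads in a library. IRF7, the factor that amplifies interferon production, and IFITM1 exceeded it by 1 unit in only 1 library, DMSO asynchronous replicate 3, at 6.32 and 6.00. IRF7 was at the lowest value in 12 of the 15 libraries.

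Of the 38 tested genes, 30 lay at least 1 unit above the lowest value in all 15 libraries, and the other 8 passed the filter through some libraries only. USP18 and IFI44L passed it through non-released and S-phase libraries alone, so they could only be higher there, and their calls against asynchronous cells are limited by that choice. IFIT2 passed through 3 non-released libraries and DMSO asynchronous replicate 3, and through no S-phase library. Counts are therefore also given below without genes that reached the filter in no library of 1 of the compared states, a count made after the values were seen. DMSO asynchronous replicate 3 was the highest of all 15 libraries for 7 of the 51 genes. It lay above the other 5 asynchronous libraries for 20 genes and below them for 8.

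The thymidine block was first compared with cycling cells without Nutlin. In non-released cells 23 of the 38 tested genes (60.5%) were higher than in asynchronous cells and 0 were lower. The background was 16.9% of all 14298 tested genes called higher and 17.0% lower, by limma with Benjamini-Hochberg adjusted p under 0.05. The median difference was 0.47 over the 38 genes and -0.01 over all genes. With 13 libraries, 26 of 37 tested genes were higher and 1, IFIT5, was lower, against 23.6% and 24.4% of all genes. Of the 35 genes that reached the filter in both states, 21 were higher and 0 lower with 15 libraries, and of 32 with 13 libraries 21 were higher and 1 lower. Without DMSO non-released replicate 2 alone, 13 genes were called, and in a fit of the compared groups only, 15. The fit of the compared groups called 3598 of all 14298 genes. In these bulk samples, a change in the number of cells that express a gene and in the RNA per cell cannot be told apart.

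STAT2 and IRF9, members of the ISRE-binding complex, rose. STAT2 stood at 9.84, 10.04 and 10.04 in DMSO asynchronous replicates 1 to 3 and at 10.70 and 10.80 in DMSO non-released replicates 1 and 2. The groups did not overlap, and the difference was 0.77 ± 0.08 (SE; limma adjusted p = 2.87e-05). IRF9, the DNA-binding partner, was at 7.72, 7.95 and 8.15 against 8.47 and 8.40, again without overlap, and rose by 0.50 ± 0.13 (adjusted p = 0.0105). IRF1, a transcription factor that responds mainly to interferon gamma, did not pass the test, at 0.29 ± 0.17 (adjusted p = 0.216). Of the sensors, IFIH1 (MDA5), which binds long double-stranded RNA, rose by 0.48 ± 0.14 (adjusted p = 0.0189). DDX58 (RIG-I), which binds RNA with a triphosphate end, was not called, and its difference had a 95% interval from -0.27 to 0.27.

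Among the antiviral effectors 7 of 15 tested rose. SAMD9 and SAMD9L, neighbouring genes whose proteins restrict poxviruses, rose most on this scale. SAMD9 stood at 9.20, 8.54 and 8.44 in DMSO asynchronous libraries and at 10.50 and 10.37 in the non-released ones, a difference of 1.71 ± 0.17 (adjusted p = 2.07e-05). In normalised reads these were 380 ± 132 (SD, n = 3) and 1329 ± 87 (SD, n = 2). SAMD9L stood at 6.95, 6.68 and 6.48 against 8.45 and 8.26, a difference of 1.65 ± 0.15 (adjusted p = 1.09e-05). Neither gene's groups overlapped, and for both the highest asynchronous library was replicate 1, not the library that stood apart.

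IFIT1, which binds RNA caps that lack ribose methylation, was at 6.04, 6.39 and 6.48 in DMSO asynchronous cells and 7.59 and 7.47 in non-released cells. This was 32.4 ± 10.4 (SD, n = 3) and 132 ± 10.2 (SD, n = 2) normalised reads, and the difference was 1.23 ± 0.21 (adjusted p = 0.000812). Its relatives IFIT2 and IFIT3 rose by 0.50 ± 0.14 and 0.55 ± 0.18 (adjusted p = 0.0157 and 0.0308). IFIT5, of the same family, was at -0.33 ± 0.14 and did not pass the test with 15 libraries (adjusted p = 0.0879). CMPK2, a mitochondrial nucleotide kinase, rose by 0.77 ± 0.13 and OAS3, an oligoadenylate synthetase that activates RNase L, by 0.60 ± 0.20 (adjusted p = 0.000582 and 0.0307). OAS1 and OASL had differences of 0.42 ± 0.17 and 0.33 ± 0.15 that did not pass (adjusted p = 0.0791 and 0.104). MX1, BST2, ISG20, IFITM2 and IFITM3 had differences between -0.18 and 0.10, none called.

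For genes with few reads the deposited scale compresses differences. On reads recovered from the values and analysed with voom, the difference was 2.51 for IFI44L, 2.35 for SAMD9L, 2.24 for IFI44, 2.08 for IFIT1, 1.90 for USP18, 1.77 for CMPK2 and 1.46 for IFIT2. For the more abundant STAT2 and DTX3L the voom differences were 0.84 and 0.88, near those on the deposited scale.

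All 4 tested genes of the ISG15 system rose. ISG15, a ubiquitin-like modifier, was at 8.18, 7.99 and 8.45 in DMSO asynchronous and 8.67 and 8.64 in DMSO non-released libraries (0.45 ± 0.17, adjusted p = 0.0496), a call lost in 15 of 23 alternatives. UBE2L6, the conjugating enzyme that carries it, was at 8.28, 8.10 and 8.00 against 9.02 and 9.03 and rose by 0.90 ± 0.13 (adjusted p = 0.00025). Both genes' groups were separate. USP18, the protease that removes ISG15 and also restrains the interferon receptor, rose by 0.72 ± 0.19, and HERC6, a relative of the ligase HERC5, by 0.59 ± 0.11 (adjusted p = 0.0104 and 0.00155). HERC5 itself had at most 7 reads in any library.

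Of the PARP and TRIM proteins 5 of 7 rose. PARP9 and DTX3L form a complex that couples ADP-ribosylation to ubiquitin, and PARP14 is a mono-ADP-ribosyltransferase with macrodomains. PARP14 was at 10.39, 10.35 and 10.44 in DMSO asynchronous and at 11.44 and 11.42 in non-released libraries, a difference of 1.04 ± 0.08 and the smallest adjusted p of the 38 genes in this comparison (4.65e-06). PARP9 was at 7.91, 8.06 and 8.43 against 9.54 and 9.54, higher by 1.40 ± 0.14 (adjusted p = 2.01e-05). DTX3L was at 10.08, 10.09 and 10.18 against 10.95 and 10.92, higher by 0.82 ± 0.09 (adjusted p = 2.32e-05). None of these groups overlapped. PARP10, also a mono-ADP-ribosyltransferase, rose by 0.88 ± 0.15 and TRIM21, a cytosolic antibody receptor and ubiquitin ligase, by 0.38 ± 0.12 (adjusted p = 0.000852 and 0.0227). PARP12 and TRIM14 did not pass, at 0.04 ± 0.11 and -0.18 ± 0.22.

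The 4 tested genes of the remaining interferon-stimulated group all rose. IFI44 was at 6.55, 6.13 and 6.28 in DMSO asynchronous and 7.60 and 7.72 in non-released libraries, with no overlap and a difference of 1.34 ± 0.13 (adjusted p = 1.37e-05). IFI44L, its neighbour on chromosome 1, went from 8.28 ± 2.76 (SD, n = 3) to 46.9 ± 2.66 (SD, n = 2) normalised reads, a difference of 0.97 ± 0.14 on the deposited scale (adjusted p = 0.00025). IFI6, an antiviral membrane protein, and LGALS3BP rose by 0.46 ± 0.14 and 0.43 ± 0.11 (adjusted p = 0.0249 and 0.00997). None of the 3 tested antigen presentation genes passed: B2M differed by 0.21 ± 0.14, HLA-C by 0.12 ± 0.14 and HLA-B by -0.08 ± 0.13.

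**Figure D2:**
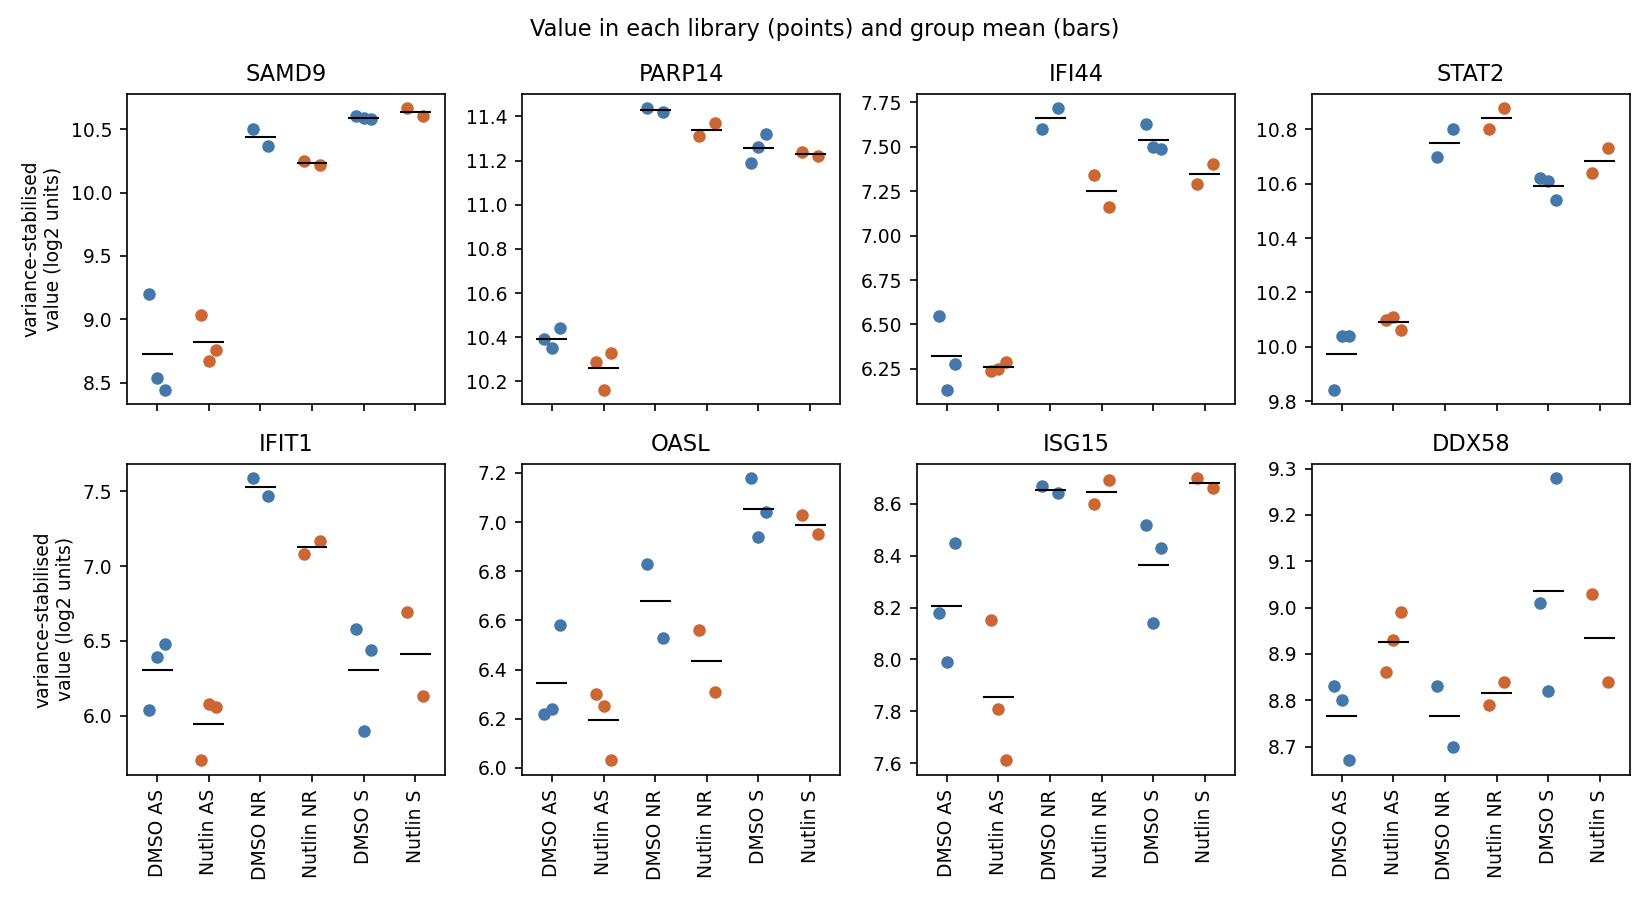
Variance-stabilised value (y axis, log2 units; each panel has its own scale) of 8 genes in each library, with DMSO in blue, Nutlin in orange and a bar at the group mean. SAMD9, PARP14, IFI44 and STAT2 lie higher in every NR and S library than in every AS library, IFIT1 is highest in the 4 NR libraries, OASL in the 5 S libraries, and DDX58 overlaps between states.

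The same comparison in Nutlin-treated cells takes its differences from other libraries. It is not fully separate, because the fit shares 1 spread over all 15 libraries. Same-numbered DMSO and Nutlin libraries also deviated together, with r of 0.07 to 0.35. Here 22 of 38 genes (57.9%) were higher in non-released cells and 0 were lower, against 17.3% and 17.2% of all genes, with a median of 0.58 against 0.00. With 13 libraries the counts were 24 of 37 and 0, against 25.3% and 24.8% of all genes. Among genes that reached the filter in both states 20 of 35 were higher with 15 libraries and 20 of 32 with 13. Of the genes, 21 were called higher both with DMSO and with Nutlin, 91.3% of the DMSO calls and 95.5% of the Nutlin calls. The same overlap was not counted over all genes, so it is not shown to be particular to this set. LGALS3BP and TRIM21 were called with DMSO but not Nutlin and OAS1 with Nutlin but not DMSO, and the difference between the treatments was not called for any of them.

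SAMD9 was at 9.03, 8.67 and 8.76 in Nutlin asynchronous and 10.25 and 10.22 in Nutlin non-released libraries (1.41 ± 0.17, limma adjusted p = 7.48e-05). PARP9 was at 7.76, 7.72 and 8.02 against 9.33 and 9.41 (1.54 ± 0.14, adjusted p = 1.14e-05). PARP14 was at 10.29, 10.16 and 10.33 against 11.31 and 11.37 (1.08 ± 0.08, adjusted p = 2.73e-06). For these genes every non-released library lay above every asynchronous one whatever the treatment.

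Other genes rose too. DTX3L rose by 0.92 ± 0.09, SAMD9L by 1.39 ± 0.15, STAT2 by 0.75 ± 0.08, IFI44 by 0.99 ± 0.13 and IFIT1 by 1.18 ± 0.21 (adjusted p from 1.14e-05 to 0.00107). PARP10 rose by 1.01 ± 0.15, HERC6 by 0.69 ± 0.11, UBE2L6 by 0.78 ± 0.13 and IFI44L by 0.75 ± 0.14 (adjusted p from 0.000332 to 0.00149). ISG15 was at 8.15, 7.81 and 7.61 in Nutlin asynchronous libraries, below the 8.60 and 8.69 of the non-released ones, and rose by 0.78 ± 0.17 (adjusted p = 0.00273). The largest differences that did not pass were IRF1 at 0.44 ± 0.17, BST2, a tether of budding virus, at 0.35 ± 0.20, TRIM14 at -0.35 ± 0.22 and LGALS3BP at 0.30 ± 0.11.

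**Figure D3:**
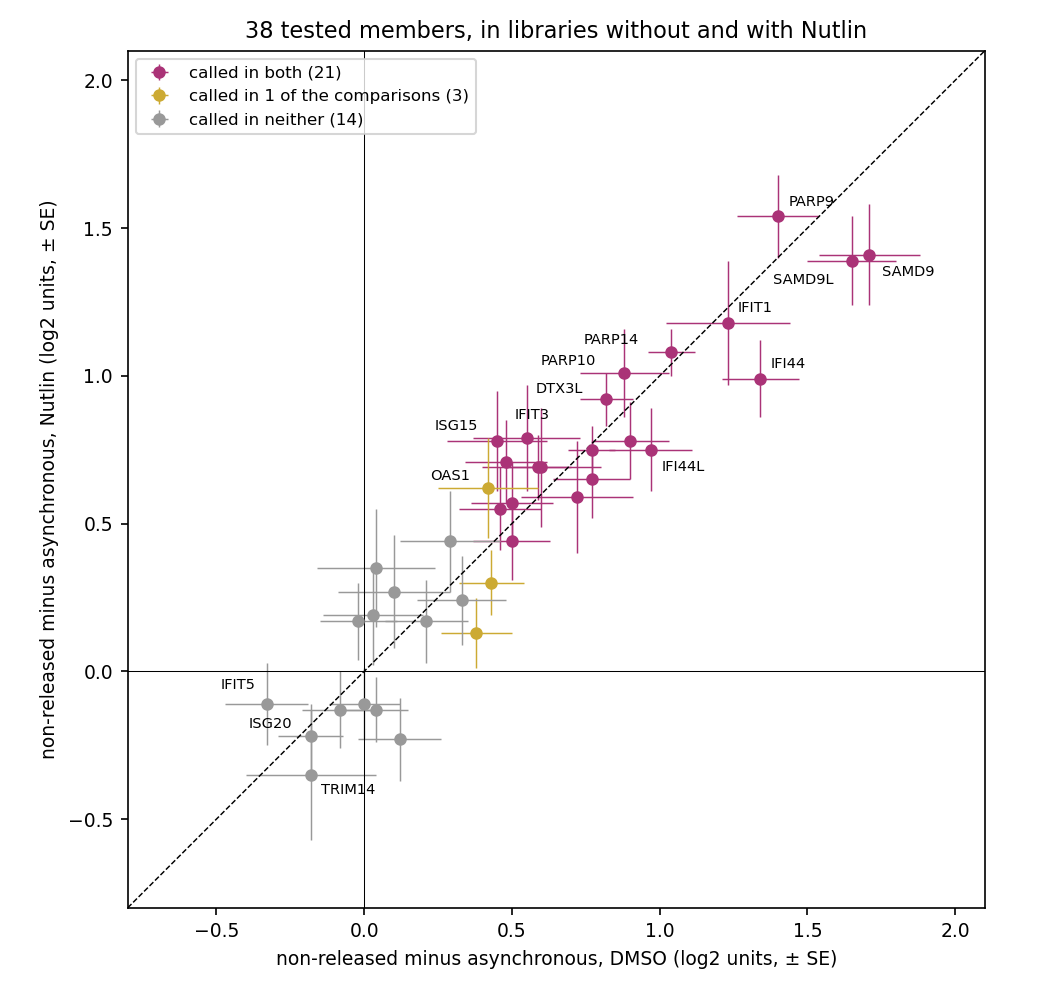
Difference between non-released and asynchronous cells in log2 units, without Nutlin (x axis) and with Nutlin (y axis), for the 38 tested genes. Bars are 1 SE, from the spread shared by all libraries. The dashed line marks equal differences, and no library enters the differences on both axes. The 21 genes called on both axes lie in the upper right, among them IRF9 at 0.50 and 0.44 and SAMD9 at 1.71 and 1.41, and IFIT5, ISG20 and TRIM14 lie below 0 on both axes without being called.

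Counted over both treatments, every one of the 4 non-released libraries lay above every one of the 6 asynchronous libraries for 22 of the 38 genes, against 19.5% of all genes. The reverse held for 1 gene, ISG20, an exonuclease, against 21.4% of all genes. With 13 libraries the counts were 26 and 1, against 24.1% and 25.3%. USP18 and IFI44L, in the 22 and the 26, and IFIT2, MX1 and OAS1, in the 26, could only be higher there. Each reached the filter in no asynchronous library among those of its count.

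Cells released into S-phase were compared with asynchronous cells next. The DMSO asynchronous libraries are the same as in the comparison above, so neither comparison is independent of the other. Without Nutlin 16 of 38 genes (42.1%) were higher in S-phase cells and 1, IFIT5, was lower, against 14.1% and 13.6% of all genes. The median difference was 0.33, against -0.01 over all genes. With 13 libraries 19 of 37 were higher and 0 lower, against 15.7% and 16.2%. Of the genes that reached the filter in both states, 15 of 35 were higher with 15 libraries and 17 of 32 with 13. In a fit of the compared groups only, 10 of the 38 genes were called, beside 1010 of all 14298 genes.

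SAMD9 again had the largest difference. It stood at 10.60, 10.59 and 10.58 in DMSO S-phase replicates 1 to 3, above every asynchronous library, by 1.86 ± 0.16 (limma adjusted p = 1.31e-05). PARP14 stood at 11.19, 11.26 and 11.32 (0.86 ± 0.07, adjusted p = 9.86e-06) and IFI44 at 7.63, 7.50 and 7.49 (1.22 ± 0.11, adjusted p = 2.02e-05), both above all their asynchronous values. SAMD9L was higher by 1.35 ± 0.13, IFI44L by 1.06 ± 0.13, STAT2 by 0.62 ± 0.08, PARP9 by 0.95 ± 0.13 and DTX3L by 0.49 ± 0.08 (adjusted p from 3.5e-05 to 0.000703). UBE2L6 was higher by 0.61 ± 0.12, HERC6 by 0.52 ± 0.10 and IRF9 by 0.58 ± 0.12 (adjusted p = 0.00258, 0.00278 and 0.00336).

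OASL, a relative of the oligoadenylate synthetases without their activity, was called here but not in non-released cells. It stood at 7.18, 6.94 and 7.04 in DMSO S-phase and 6.22, 6.24 and 6.58 in DMSO asynchronous libraries, without overlap (0.70 ± 0.13, adjusted p = 0.00232). Its DMSO non-released libraries were at 6.83 and 6.53, and the difference between S-phase and non-released cells was 0.37 ± 0.15, which did not pass (adjusted p = 0.169). IRF1 was higher by 0.57 ± 0.15 (adjusted p = 0.0146). IFIT5 was at 9.20, 8.96 and 9.53 in S-phase against 9.72, 9.58 and 9.49 in asynchronous libraries, ranges that overlap, and its call (-0.37 ± 0.12, adjusted p = 0.043) was lost in 15 of 23 alternatives. IFIT1 was not called here, at 0.00 ± 0.19, with an interval from -0.41 to 0.42. The largest differences that did not pass were OAS3 at 0.46 ± 0.18, IFI6 at 0.36 ± 0.13, OAS1 at 0.34 ± 0.15 and USP18 at 0.31 ± 0.17.

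With Nutlin 16 of 38 genes (42.1%) were higher in S-phase than asynchronous cells and 0 were lower, against 13.4% and 10.6% of all genes. These differences come from libraries outside the DMSO comparison, with the same shared spread. The median was 0.44, against 0.00 over all genes. With 13 libraries 24 of 37 were higher and 1, TRIM14, was lower, against 21.8% and 19.4%. Among genes that reached the filter in both states 15 of 35 were higher with 15 libraries and 21 of 32 with 13. Of the 15-library calls 13 were shared with the DMSO comparison, 81.2% of either set, again without a count over all genes. SAMD9 reached 10.67 and 10.60 (1.82 ± 0.17, limma adjusted p = 2.93e-05), PARP14 11.24 and 11.22 (0.97 ± 0.08, adjusted p = 7.8e-06) and IFI44 7.29 and 7.40 (1.08 ± 0.13, adjusted p = 0.000105).

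HERC6 was higher by 0.88 ± 0.11, PARP9 by 1.09 ± 0.14, SAMD9L by 1.12 ± 0.15 and STAT2 by 0.59 ± 0.08 (adjusted p from 0.000205 to 0.000369). DTX3L was higher by 0.59 ± 0.09, IFI44L by 0.91 ± 0.14, OASL by 0.79 ± 0.15, UBE2L6 by 0.70 ± 0.13 and ISG15 by 0.82 ± 0.17 (adjusted p from 0.00041 to 0.00331). TRIM14 at -0.55 ± 0.22, USP18 at 0.47 ± 0.19, IFIT1 at 0.46 ± 0.21 and IFIT3 at 0.45 ± 0.18 had the largest differences that did not pass with 15 libraries.

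Over both treatments all 5 S-phase libraries lay above all 6 asynchronous libraries for 16 of 38 genes and below them for 0, against 10.3% and 10.3% of all genes. With 13 libraries the counts were 20 and 0, against 16.5% and 17.2%. IFI44L, in the 16 and the 20, and USP18, in the 20, reached the filter in no asynchronous library and could only be higher.

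S-phase cells, harvested 4 h after release, were then compared with non-released cells, for which no hour of harvest is recorded. Where the block was continued, the comparison sets release beside a longer block. It need not show a change over those 4 h. Without Nutlin 5 of 38 genes (13.2%) were lower in S-phase cells and 0 were higher, against 2.89% lower and 4.11% higher over all genes. IFIT1 stood at 6.58, 5.90 and 6.44 in DMSO S-phase libraries against 7.59 and 7.47 in non-released ones, a difference of -1.22 ± 0.21 (limma adjusted p = 0.00375), the largest of the 5. In normalised reads that was 33.6 ± 15.8 (SD, n = 3), next to 32.4 ± 10.4 in asynchronous cells and 132 ± 10.2 under the block. IFIH1 (-0.54 ± 0.14), IFIT2 (-0.53 ± 0.14), CMPK2 (-0.48 ± 0.13) and DTX3L (-0.33 ± 0.09) were the others, with adjusted p from 0.0331 to 0.0389. The call of IFIT1 was lost in 1 of 23 alternatives, the one without DMSO non-released replicate 1 (effect size -1.17). The other 4 calls were each lost in 8 to 13 alternatives. PARP9 at -0.45 ± 0.14, IFIT3 at -0.42 ± 0.18 and USP18 at -0.40 ± 0.19 did not pass.

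This count moved with the libraries used. With 13 libraries 6 genes were lower (IFIT1, IFIT2, IFIH1, PARP9, OAS3 and DTX3L) and 1, DDX58, was higher, against 6.34% and 7.98% of all genes. IFIT2 reached the filter there only in non-released libraries, where it is high, and could only be lower; without it 5 were lower. With 15 libraries 4 were lower without it. Leaving out 1 library gave 0 calls without DMSO non-released replicate 1, 1 without DMSO non-released replicate 2 or either Nutlin non-released library, and 2 or 3 without any of the DMSO S-phase libraries or without Nutlin asynchronous replicate 2 or 3.

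With Nutlin 0 of 38 genes were called between S-phase and non-released cells by limma, with 7 at an unadjusted p under 0.05 and 0 by voom, against 2.43% of all genes called. Over all 14298 genes 2257 reached an unadjusted limma p under 0.05. IFIT1 was at 6.69 and 6.13 in Nutlin S-phase and 7.08 and 7.17 in Nutlin non-released libraries (-0.72 ± 0.24, adjusted p = 0.137). OASL was at 7.03 and 6.95 against 6.56 and 6.31 (0.55 ± 0.16, adjusted p = 0.0994). PARP10 at -0.52 ± 0.17 and PARP9 at -0.45 ± 0.16 were next. With 13 libraries these 4 and DTX3L were called, DTX3L at -0.33 ± 0.08, adjusted p = 0.0155, against 10.8% of all genes. Without DMSO asynchronous replicate 3 alone OASL was called, and without DMSO S-phase replicate 2 alone DTX3L. These libraries are in neither group and enter only through the shared spread. In a fit of the compared groups only, 2 of the 38 genes, PARP9 and SAMD9, were called, beside 737 of all 14298 genes.

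Over both treatments all 4 non-released libraries lay above all 5 S-phase libraries for 6 genes (IFIH1, IFIT1, IFIT2, IFIT3, PARP9 and DTX3L), against 7.35% of all genes. All S-phase libraries lay above all non-released ones for 3 (OASL, ISG20 and SAMD9), against 7.98%. With 13 libraries the counts were 8 and 3, against 10.7% and 12.7%. IFIT2, in the 6 and the 8, reached the filter in no S-phase library and could only be higher in non-released ones. In group means of DMSO cells in the order asynchronous, non-released and S-phase, IFIT1 was at 6.30, 7.53 and 6.31. In the same order PARP9 was at 8.13, 9.54 and 9.09, and SAMD9 at 8.73, 10.44 and 10.59.

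**Figure D4:**
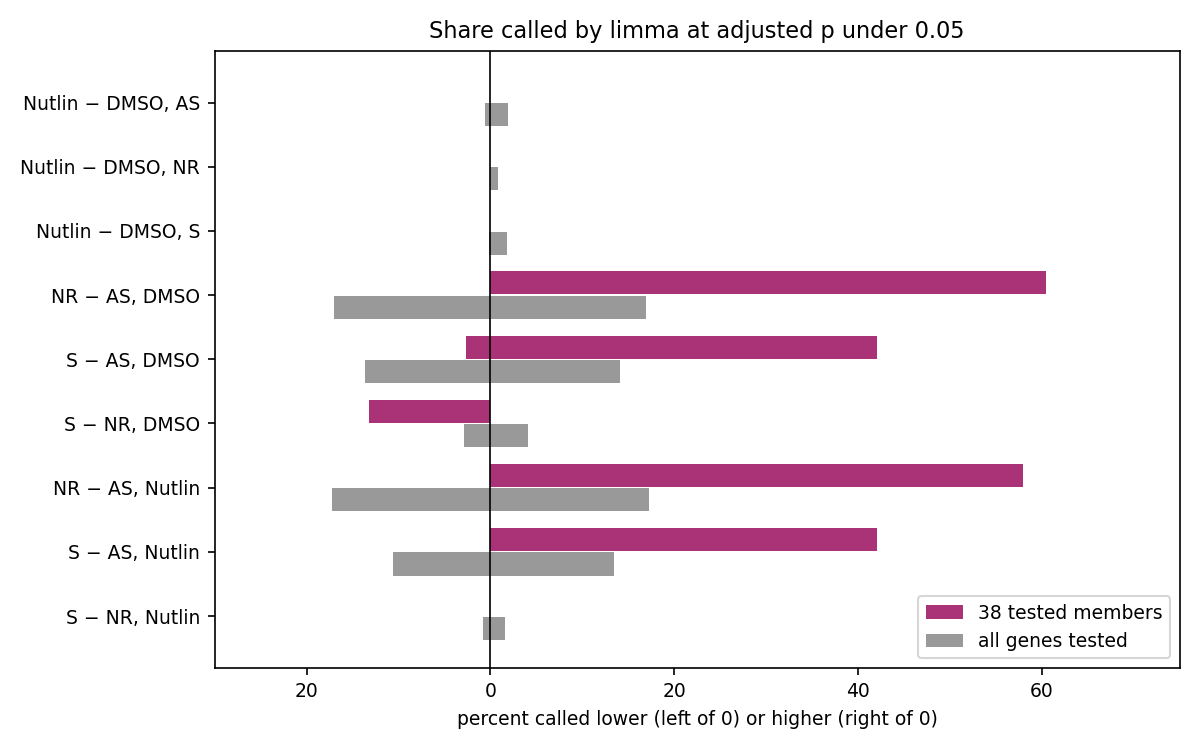
Percent called higher (right of 0) or lower (left of 0) by limma at adjusted p under 0.05, for the 38 tested interferon response genes and for all 14298 tested genes, in the 9 comparisons of groups (AS asynchronous, NR non-released, S S-phase). The 38 genes reach 60.5% and 57.9% higher in NR − AS and 42.1% in S − AS, against 13.4% to 17.3% of all genes, and 0% in all 3 comparisons of Nutlin with DMSO.

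Nutlin itself was compared with DMSO in each state. In asynchronous cells 0 of the 38 genes passed by limma, with 9 at an unadjusted p under 0.05 and 0 by voom, against 2.45% of all genes called. In non-released cells 0 passed, with 4 at an unadjusted p under 0.05 and 0 by voom, against 0.916% of all genes. In S-phase cells 0 passed, with 3 at an unadjusted p under 0.05 and 0 by voom, against 2.00% of all genes. The shares of all genes are at adjusted p. An unadjusted limma p under 0.05 was reached by 1735 of all 14298 genes in asynchronous, 954 in non-released and 1799 in S-phase cells. The medians were -0.08, -0.08 and -0.01, beside -0.02, -0.02 and -0.01 for all genes. With 13 libraries 0 of 37 genes were called in non-released and 0 in S-phase cells, beside 459 and 564 of all 14193 genes. Unadjusted limma p under 0.05 was then reached by 9 and 3 of the 37, beside 1714 and 2211 of all genes. CDKN1A, the check of the treatment, did not pass with 15 libraries either, at 1.22 ± 0.49, 1.44 ± 0.60 and 2.00 ± 0.55 (limma adjusted p = 0.305, 0.597 and 0.0927). Its DMSO asynchronous libraries stood at 11.47, 11.45 and 14.10, and the fit shares 1 spread over all groups. MDM2, the other check, stood at 12.44, 12.50 and 14.77 in DMSO and 14.71, 14.60 and 14.55 in Nutlin asynchronous libraries. In non-released cells MDM2 was at 13.10 and 13.07 with DMSO and 14.79 and 14.84 with Nutlin. In S-phase cells it was at 12.83, 12.49 and 12.80 against 14.61 and 14.71, in both states without overlap. A p that misses the threshold does not show that Nutlin had no effect: over the 38 genes, 95% intervals reached from -0.77 to 0.65 in asynchronous, -0.91 to 0.87 in non-released and -1.07 to 0.67 in S-phase cells.

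In asynchronous cells the largest differences were IFIT2 at -0.42 ± 0.13, IFIT1 at -0.36 ± 0.19, ISG15 at -0.35 ± 0.15 and TRIM21 at 0.35 ± 0.10, and DTX3L at -0.28 ± 0.08 had the smallest limma adjusted p (0.088). DTX3L lay at 9.89, 9.76 and 9.86 with Nutlin and 10.08, 10.09 and 10.18 with DMSO, without overlap. It was called without DMSO S-phase replicate 2 (-0.28 ± 0.07, adjusted p = 0.0318) and with 13 libraries (-0.25 ± 0.07, adjusted p = 0.0491), the only gene of the set called in those fits, against 6.26% of all genes with 13 libraries. In non-released cells the largest were IRF1 at 0.47 ± 0.19, CMPK2 at -0.46 ± 0.14, IFI44 at -0.41 ± 0.14 and IFIT1 at -0.40 ± 0.24. IRF1 was called there in a fit of the compared groups only (0.47 ± 0.10, adjusted p = 0.0392), beside 637 of all 14298 genes. In S-phase cells the largest were TRIM14 at -0.60 ± 0.22, BST2 at -0.41 ± 0.20, HLA-C at 0.36 ± 0.14 and ISG15 at 0.32 ± 0.17.

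Whether Nutlin changed the difference between states was tested directly, as the difference between its effects in any 2 states. Over the 38 genes and over all 14298 genes limma called 0 in each of the 3 tests, which is 0.00% of all genes, and voom called 0 of the 38. Unadjusted p under 0.05 was reached by 0 genes of the set for non-released minus asynchronous, 3 for S-phase minus asynchronous and 1 for S-phase minus non-released cells. Over all 14298 genes these counts were 155, 787 and 321. ISG15 had the largest difference, 0.66 ± 0.22 for S-phase minus asynchronous cells, with an interval from 0.19 to 1.14 and a limma adjusted p of 0.836. Its means with Nutlin and with DMSO were 7.86 and 8.21 in asynchronous cells and 8.68 and 8.36 in S-phase cells. With 13 libraries 0 of 37 genes were called in each of the 3 tests, beside 3, 0 and 0 of all 14193 genes.

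The genes upstream of the set were measured too. Of 21 genes for interferons, 16 had 0 reads in all 15 libraries, IFNB1 among them, and all 21 together had 66 reads, 61 of them from IFNE. None was tested. In non-released against asynchronous cells without Nutlin IL28RA and IL10RB, chains of the interferon lambda receptor, rose by 0.89 ± 0.16 and 0.49 ± 0.12, and IFNAR2 by 0.59 ± 0.20 (limma adjusted p = 0.000845, 0.00789 and 0.0335). With Nutlin these 3 were called as well, at 0.75 ± 0.16, 0.50 ± 0.12 and 0.62 ± 0.20. IFNGR2, a chain of the interferon gamma receptor, rose in S-phase against asynchronous cells by 0.68 ± 0.12 without and 0.68 ± 0.13 with Nutlin.

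IFNAR1, IFNGR1, JAK1 and TYK2 were called in none of the 9 comparisons of groups. Of 6 tested genes that restrain interferon signalling, 1 rose and 1 fell in non-released against asynchronous DMSO cells, near the 16.9% and 17.0% of all genes called higher and lower. PTPN2, a phosphatase that acts on JAK and STAT proteins, fell (-0.64 ± 0.11), and SOCS1, a feedback inhibitor, rose by 0.48 ± 0.17 (adjusted p = 0.000546 and 0.0423).

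Of 11 tested genes that sense nucleic acids upstream of interferon or relay that signal, 2 rose and 3 fell in non-released against asynchronous DMSO cells, beside 16.9% higher and 17.0% lower of all genes, so the counts do not set this list apart. TLR3, the endosomal receptor for double-stranded RNA, stood at 5.75, 5.80 and 5.66 in asynchronous and 7.23 and 7.31 in non-released DMSO libraries (1.53 ± 0.11, limma adjusted p = 4.65e-06), far apart beside the spread within either group. IFI16, a DNA sensor, rose by 0.34 ± 0.12, while TRAF3, IKBKE and DDX41 fell by 0.73, 0.46 and 0.42. MB21D1 (cGAS), the cytosolic DNA sensor, was called in none of the 9 comparisons. TMEM173 (STING), the adaptor below it, rose in S-phase against asynchronous cells by 0.64 ± 0.16 without and 0.58 ± 0.18 with Nutlin. Of 7 tested genes that clear nucleic acids, 5 rose in non-released DMSO cells and 0 fell, beside the same 16.9% and 17.0% of all genes. The largest rises were those of TREX1, the cytosolic DNA exonuclease, at 0.82 ± 0.12, RNASEH2A at 0.66 ± 0.12 and SAMHD1, a nucleotide hydrolase, at 0.55 ± 0.11.

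Of 28 other tested interferon-stimulated genes, 14 rose and 3 fell in non-released against asynchronous DMSO cells, with a median of 0.36. Over all genes 16.9% were higher and 17.0% lower, with a median of -0.01. APOL6 was at 8.20, 8.10 and 7.95 in asynchronous and 9.79 and 9.74 in non-released libraries (1.68 ± 0.17, limma adjusted p = 2.01e-05), without overlap. TRIM22, a restriction factor, rose by 0.98 ± 0.11, TRIM5, another, by 0.83 ± 0.10 and APOL1 by 0.85 ± 0.14. PNPT1, a mitochondrial RNA exonuclease, fell by 0.95. Of 9 tested antigen presentation genes outside the set, 3 rose (ERAP2, NLRC5 and PSME2) and 0 fell, beside the same shares of all genes.

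Some genes outside the set passed the test for Nutlin. TLR3 was higher with Nutlin by 0.64 ± 0.10 in asynchronous, 0.75 ± 0.12 in non-released and 0.97 ± 0.11 in S-phase cells (limma adjusted p = 0.00234, 0.00757 and 0.000341). TRIM22, a p53 target as well as an interferon-stimulated gene, was higher by 1.43 ± 0.09, 0.70 ± 0.12 and 1.05 ± 0.11. SP110 was higher in asynchronous (0.94 ± 0.12) and S-phase cells (0.58 ± 0.13) and TRIM5 in asynchronous cells (0.68 ± 0.09). TRIM25, which acts on RIG-I, was lower in S-phase cells (-0.50 ± 0.12, adjusted p = 0.0419).

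Set beside the promoters printed above, the ISRE core was in 1 or more windows of 14 of 20 genes with a window that were called higher in non-released than asynchronous DMSO cells. It was in 8 of 13 tested genes not called there, and in 7 of 10 of those not tested. STAT2, IRF9, SAMD9L, HERC6, UBE2L6 and CMPK2 rose without the core in their windows, which says only that these letters are not there. Of the 38 genes, 11 were called in none of the comparisons with 15 libraries: DDX58, IFITM2, IFITM3, MX1, ISG20, BST2, PARP12, TRIM14, B2M, HLA-B and HLA-C. Of these, MX1 was called with 13 libraries in non-released against asynchronous DMSO cells, where it reached the filter in no asynchronous library (0.32 ± 0.12, adjusted p = 0.0435). DDX58 was called with 13 libraries in S-phase DMSO cells against asynchronous (0.33 ± 0.11, adjusted p = 0.0296) and against non-released cells (0.38 ± 0.11, adjusted p = 0.0287), and B2M in S-phase against asynchronous cells with Nutlin (0.30 ± 0.08, adjusted p = 0.00742), as was TRIM14, lower, given above.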

How the data were processed

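RNA of U2OS cells was sequenced in 15 libraries, and groups were taken from the library labels. The authors deposited variance-stabilised values on a log2 scale, with 1 column per library. Tools and build listed, per the submitters' processing notes and with no role given, are HTSeq, TopHat 0.9, CASAVA 1.8.2, hg19 and DESeq2 1.10.1. The annotation and the strand setting of the counts were not stated there. The transformation was inverted and each library scaled by 1 factor, after which 99.04% to 99.99% of values above the lowest lay within 0.05 of a whole read. These recovered reads gave depths, normalised reads, RPKM (longest protein-coding transcript, GENCODE v29) and a voom fit with trimmed-mean scaling.

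The deposited values were fitted with limma 3.58.1 (R 4.3.3): 1 mean per group over 15 libraries, eBayes with a trend (prior degrees of freedom 4.66), two-sided, Benjamini-Hochberg adjustment within each of 12 comparisons. The 14298 genes fitted exceeded the lowest value by 1 unit in 2 libraries or more. The fit was tested on simulated data. Alternatives were other filters, voom, median centring, fits of the compared groups, a replicate block, and leaving out libraries. Called genes are named in each comparison by p, at most 12, and uncalled ones by size, at most 4. Further genes of non-released against asynchronous DMSO cells, and DTX3L under Nutlin, DDX58, OASL, IRF1, IFIT1 and IFIT5 elsewhere, were named after their values were seen. The genes and lists were chosen with earlier results of these data known. RefSeq promoters are of another build than the reads and were used only as sequences. Of 35 other interferon-stimulated genes listed, 34 were in the table.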

Additional observations from a re-analysis of the deposited data

How the results depend on the processing

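Across the 83 calls of a gene in a comparison, 1754 of 1892 alternative fits kept the direction and the call, 138 kept the direction and lost the call, and 0 turned the direction. Many of these fits leave out a library of neither compared group, which keeps the difference and can move only the p-value. The kept directions were therefore partly fixed in advance. In every alternative that tested them, 13 of the 23 calls of non-released against asynchronous DMSO cells held, 15 of 22 with Nutlin, 10 of 17 for S-phase against asynchronous DMSO cells, 12 of 16 with Nutlin and 0 of 5 for S-phase against non-released DMSO cells. Numbers of the 51 genes called moved as follows. Fits of the compared groups only gave 15 (in place of 23), 10 (17) and 1 (5) for the DMSO comparisons of states in the order above, 2 (0) for S-phase against non-released cells with Nutlin and 1 (0) for Nutlin in non-released cells, but 26 (22) for non-released and 22 (16) for S-phase against asynchronous cells with Nutlin, each with 1 gene lower. Over all 14298 genes fits of the compared groups called 3598 (in place of 4854), 1010 (3955) and 335 (1000) for the DMSO comparisons of states. They called 737 (348) for S-phase against non-released cells with Nutlin and 637 (131) for Nutlin in non-released cells. For non-released and S-phase against asynchronous cells with Nutlin they called 7809 (4933) and 5174 (3434). Filters of 2 units or none gave 3 each for S-phase against non-released DMSO cells, beside 994 of 12122 and 839 of 20110 genes. With 13 libraries 25 (16) were called for S-phase against asynchronous cells with Nutlin. For S-phase against non-released cells with Nutlin 5 (0) were called, and 1 (0) for Nutlin in asynchronous cells. Over all genes with 13 libraries these were 5847 (3434), 1539 (348) and 888 (351). Leaving out 1 library gave 13 to 24 and 15 to 24 for non-released against asynchronous cells with DMSO and Nutlin, 15 to 19 and 14 to 21 for S-phase against asynchronous cells, 0 to 6 and 0 to 1 for S-phase against non-released cells, and 0 to 1 for Nutlin in asynchronous cells. With a replicate block 22, 17, 6, 24, 19 and 0 were called for those comparisons of states (DMSO, then Nutlin). For Nutlin 0 were called in each state. Over all 14298 genes the block gave 4985, 4346, 1347, 5168, 3654 and 450 for the comparisons of states. For Nutlin it gave 397 in asynchronous, 166 in non-released and 324 in S-phase cells. The block ended the calls of ISG15 and OAS3 in non-released against asynchronous DMSO cells (adjusted p = 0.0516 and 0.0552) and added IRF1 there, PARP9 in S-phase against non-released DMSO cells, IRF1 and LGALS3BP in non-released and IFIH1, IRF1 and USP18 in S-phase against asynchronous cells with Nutlin. Same-numbered libraries deviated together with r of 0.31, 0.14 and 0.07 in asynchronous, 0.32 and 0.32 in non-released and 0.34 and 0.35 in S-phase cells, and 12 of the 14 libraries with a same-numbered partner correlated best with it. Deviations were taken from group means, so in a group of 2 libraries they mirror each other. The 2 non-released pairs must therefore have the same r, and the Nutlin S-phase libraries are mirrored as well. Neither the libraries nor the pairs counted are separate from each other. The labels do not say that a number marks a shared culture or day, and 6 of 7 pairs, not all, exceeded the r of 0.1 asked of every pair, so the reported values are without the block and the pairing is a hint from the data. Depth limits the genes within 1 unit of the lowest value, where changes below a few reads were not detectable.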
